A study of Mus musculus with 23 samples.

Results

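This account covers 34 mouse genes of sterol and lipid metabolism, chosen by symbol: 15 enzymes of cholesterol synthesis, 5 genes of sterol sensing, the sterol carrier Stard4, 5 genes of fatty acid synthesis, 4 genes of the liver X receptors and of efflux, and 4 genes of lipid uptake and transfer. The rule uses symbols and no measured value, but the genes were listed with earlier results of these data known. Of the 34, 32 had a probe set naming that gene alone, among 19938 such genes on the array. All 32 passed the filter on dim probe sets, which kept 12157 genes. Acat2 and Nr1h2 had no single-gene probe set and were not analysed here. Expression was read in dendritic cells of mouse spleen on 23 Affymetrix Mouse Gene 1.0 ST arrays. Bcl6 conditional knockout (cKO) mice gave 4 arrays of conventional dendritic cells type 1 (cDC1), 5 of type 2 (cDC2) and 5 of plasmacytoid dendritic cells (pDC), and wild-type (WT) mice gave 3 arrays of each. No agent was named for any group, and neither the Cre line nor the age of the mice is given in the sources used here. Whether each array stands for its own animal is not stated either, so the p-values cover the spread among these arrays, which may be technical.

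Cells make cholesterol from acetyl-CoA through mevalonate and squalene. When membranes of the endoplasmic reticulum run low in sterol, the carrier SCAP takes the SREBP transcription factors to the Golgi, where they are cut and released to switch on the synthesis genes, and the INSIG proteins hold SCAP back when sterol is plentiful. Liver X receptors (LXR), activated by oxysterols, switch on genes that export cholesterol and move lipid between cells and lipoproteins. BCL6 represses transcription and has been studied most in B cells of the germinal centre. The comparison of cKO with WT cells asks what its deletion changes in each dendritic cell type.

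Promoters are shown for the 2 genes whose genotype difference passed the test, Pltp and Cd36, and for 3 genes of sterol synthesis and its control that were lower in conventional dendritic cells than in pDC in at least 1 comparison, Hmgcs1, Idi1 and Insig1. Each line is the 250 bases before the transcription start in RefSeq, build GRCm38.p6, read 5′ to 3′ on the gene's strand. Pltp lies at chr2:164857709-164857958 (minus strand), Cd36 at chr5:17835897-17836146 (minus), Hmgcs1 at chr13:119690101-119690350 (plus), Idi1 at chr13:8885356-8885605 (plus) and Insig1 at chr5:28071162-28071411 (plus). Capitals mark CCAAT on either strand (ATTGG where it reads on the opposite strand), the SREBP element TCACNCCAC in Hmgcs1 and the E-box CACGTG in Insig1.
Pltp: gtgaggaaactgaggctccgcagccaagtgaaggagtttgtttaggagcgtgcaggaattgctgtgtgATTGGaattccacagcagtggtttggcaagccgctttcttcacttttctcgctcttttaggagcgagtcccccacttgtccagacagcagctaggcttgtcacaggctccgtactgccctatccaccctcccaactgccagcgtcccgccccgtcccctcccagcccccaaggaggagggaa
Cd36: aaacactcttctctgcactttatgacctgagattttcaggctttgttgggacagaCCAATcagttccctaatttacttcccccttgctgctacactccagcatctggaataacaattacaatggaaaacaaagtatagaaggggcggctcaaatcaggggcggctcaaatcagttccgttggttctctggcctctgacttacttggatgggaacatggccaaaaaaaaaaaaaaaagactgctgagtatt
Hmgcs1: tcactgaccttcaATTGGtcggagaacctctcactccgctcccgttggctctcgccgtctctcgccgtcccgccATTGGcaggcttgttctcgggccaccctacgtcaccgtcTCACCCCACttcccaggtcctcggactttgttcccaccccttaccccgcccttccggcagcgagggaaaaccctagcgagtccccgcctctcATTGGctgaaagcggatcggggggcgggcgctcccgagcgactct
Idi1: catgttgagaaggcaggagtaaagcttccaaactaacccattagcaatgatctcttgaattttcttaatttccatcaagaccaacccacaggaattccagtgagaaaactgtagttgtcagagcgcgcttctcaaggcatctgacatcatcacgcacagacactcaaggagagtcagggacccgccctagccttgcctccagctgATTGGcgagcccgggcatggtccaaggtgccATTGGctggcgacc
Insig1: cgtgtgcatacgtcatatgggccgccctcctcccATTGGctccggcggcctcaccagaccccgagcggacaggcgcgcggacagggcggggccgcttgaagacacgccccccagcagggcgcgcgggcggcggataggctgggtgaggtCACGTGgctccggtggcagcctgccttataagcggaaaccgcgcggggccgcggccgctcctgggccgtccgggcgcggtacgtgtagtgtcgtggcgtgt
The RefSeq table held 37 promoters of 26 members. CCAAT, the site of the factor NF-Y, was found on either strand in 11 of 15 promoters of sterol synthesis enzymes (73.3%), in 19 of 37 promoters of all members (51.4%) and in 33.8% of 32851 promoters of the whole table. The SREBP element stood in 1 of the 15 enzyme promoters, that of Hmgcs1, 137 to 129 bases before the start, against 1.05% of all promoters. The BCL6-type letters TTCCNNGAA, every match of which also matches the STAT letters TTCNNNGAA, were in the promoter of Ebp and in no other of the 37, against 4.06% of the whole table. The STAT letters were likewise in Ebp only, against 7.02%. The E-box CACGTG was found in 5 of the 37, against 6.02%, among them Insig1 and Abca1. These are matches of letters in this window and say nothing on whether a factor binds.

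The arrays were divided by median intensity into 3 sets that no label names: set A (8 arrays, 29.3 to 31), set B (6 arrays, 31.6 to 34.3) and set C (9 arrays, 38.9 to 41.2). Set C stood clear of the rest, while A and B adjoin and were not separated by their medians alone. Each set held arrays of all 6 groups, so differences are also given within each set. In each cell type, WT array 1 alone was high in Xist (10.9 to 11.89 on the log2 scale, against 5.07 or less on every other array), and results were also computed without these 3 arrays. Xcr1 and Siglech ran with the cDC1 and pDC labels, while some other listed markers were shared between cell types. Xcr1 averaged 9.71 in cKO cDC1 and 9.70 in WT cDC1, against 4.52 or less elsewhere, and Siglech averaged 12.39 in cKO pDC and 12.42 in WT pDC, against 5.89 or less elsewhere. Of the cDC1 markers, Clec9a averaged 9.95 and Irf8 12 in cKO pDC, against 11.05 and 11.55 in cKO cDC1. Batf3 averaged 9.59 in cKO cDC2 and 10.38 in cKO cDC1. The pDC marker Bst2 averaged 9.27 or above in every group. Of the cDC2 markers, Sirpa and Cd209a also stood at about 10 or above in the pDC arrays, and Irf4 averaged 8.43 in cKO cDC2 and 8.27 in cKO pDC. Clec4a4 averaged 4.83 in cKO cDC2, below the array median, against 7.55 in WT cDC2. Bcl6 itself, the targeted gene, had 1 probe set, which checks nothing if the deletion leaves its target exons in place. Bcl6 differed between cKO and WT by 0.96 ± 0.35 in cDC1 (log2, SE; limma adjusted p = 0.598), 0.69 ± 0.33 in cDC2 (adjusted p = 0.756) and −0.15 ± 0.33 in pDC (adjusted p = 1), so genotype rests on the labels.

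The 32 genes differed widely in how far they varied between the 6 groups. Levels here are log2 of the deposited intensity, and those of members are compared for a gene between groups, not between genes. The marker sums below do add intensities across genes, so bright probe sets weigh most in them. The range of the 6 group means was 5.67 for Cd36 and 5.38 for Pltp. It was 1 to 2.5 for 14 members, from Insig1 (1.02) to Dhcr7 (2.17), and under 1 for the other 16. Srebf2, which encodes the SREBP that drives cholesterol synthesis, had the smallest range, 0.25, and its arrays spread by a mean SD of 0.48 within a group. Srebf1, the SREBP of fatty acid synthesis, ranged over 0.42. Of the 14 measured enzymes of sterol synthesis, 10 had their highest mean in pDC (8 in cKO pDC, 2 in WT pDC). Some members were dim: the mean of Lss, which closes squalene into the sterol ring, was under its arrays' average median in all 6 groups, Lpl in all but cKO cDC2, Nr1h3 in both cDC1 and both pDC groups, Idi1 in both cDC1 groups and WT cDC2, Abca1 in WT cDC1 and WT cDC2, and Cd36 in WT cDC2 and cKO pDC.

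**Figure D1:**
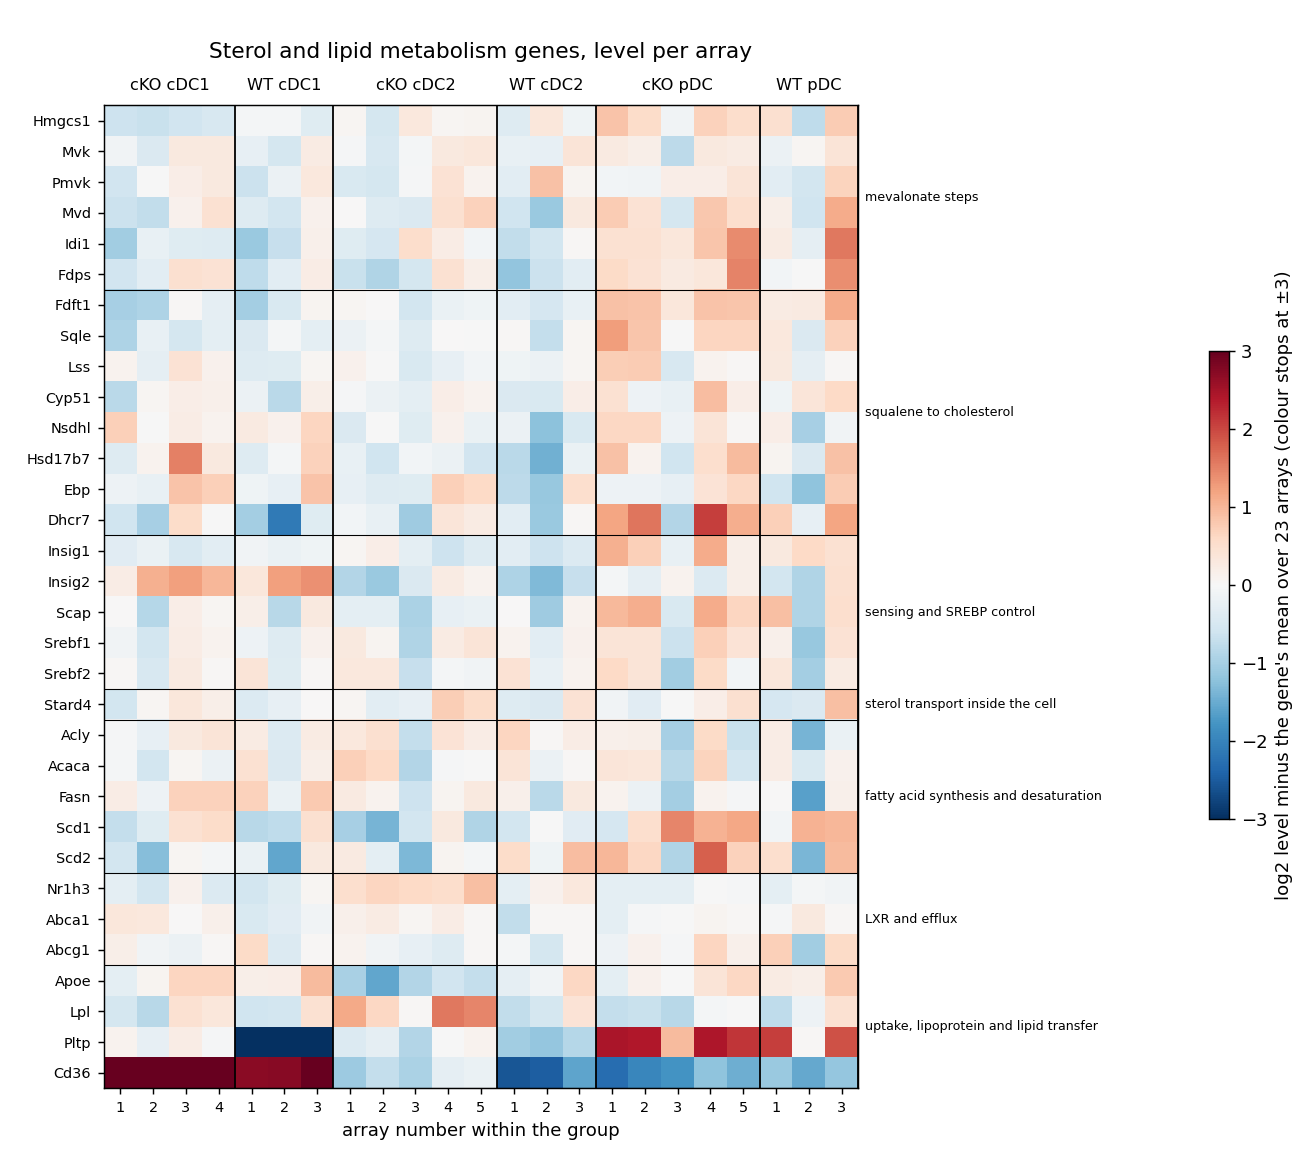
Level of each of the 32 genes on each of the 23 arrays, as log2 intensity minus the gene's own mean over all arrays (colour, stopping at ±3), with genes in rows by role and arrays in columns by group. Pltp stands far below its mean on the 3 WT cDC1 arrays and not on the 4 cKO cDC1 arrays, and Cd36 stands far above its mean on all 7 cDC1 arrays.

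In cDC1, deletion of Bcl6 was accompanied by a large rise of Pltp, the phospholipid transfer protein that moves phospholipids between lipoproteins and membranes and is a known LXR target in mouse. Pltp read 9.39, 9.03, 9.52 and 9.25 in cKO cDC1 (log2 intensity), against 5.46, 6.25 and 6.23 in WT cDC1. Every cKO array stood more than 2 units above every WT array. The mean was 9.30 ± 0.21 in cKO cDC1 (SD, n = 4) and 5.98 ± 0.45 in WT cDC1 (SD, n = 3), a difference of 3.32 ± 0.40 (SE), or 9.99-fold (limma adjusted p = 1.22e-05). Within sets A, B and C the difference was 3.93, 2.78 and 3.16. With any 1 array left out it stayed between 3.06 and 3.46 and stayed called, and blocking on replicate number gave 3.34 (limma adjusted p = 0.00205).

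Pltp was the only called member in cDC1: 1 of 32 was higher and none lower, where 0.814% of all tested genes were called higher and 0.0165% lower. An unadjusted p below 0.05 makes no allowance for the number of genes tested, and the share of all genes past that cut is not given here. Counts at that cut, here and below, name members and are no result about the set. At that cut the limma test gave 3 members. The other 2 were Abca1, which exports cholesterol to apolipoproteins, and Cd36. Abca1 read 5.55, 5.52, 5.23 and 5.36 in cKO cDC1, against 4.75, 4.87 and 5.10 in WT cDC1, a difference of 0.50 ± 0.19 (limma adjusted p = 0.722). The groups did not overlap, and the WT level was below the array median. The 14 sterol enzymes had a median difference of 0.14, with 10 above 0 and 4 below, beside a median of 0.06 over all genes, and none was called. Within sets A, B and C that median was 0.05, 0.05 and −0.03, beside −0.01, 0 and 0 over all genes. The largest was Dhcr7, which makes cholesterol from 7-dehydrocholesterol, at 0.90 ± 0.55 with overlapping groups (adjusted p = 1). Hmgcs1, the enzyme that makes HMG-CoA, was lower on all 4 cKO arrays (5.91 to 6.10) than on the WT arrays (6.20 to 6.52), a difference of −0.42 ± 0.29 that did not pass (adjusted p = 1).

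Markers of other cells moved with the cDC1 comparison. The summed intensity of 10 cDC2 markers was 1194 to 1405 in cKO cDC1, against 332 to 415 in WT cDC1, with Cd209a at 8.78 in cKO cDC1 against 5.57 in WT cDC1 and Sirpa at 8.53 against 6.26, while Clec4a4, Clec10a and Mgl2 were below the array median in both. Pltp in cKO cDC1, at 9.03 to 9.52, stood above WT cDC2, which read 8.12 to 8.43. It overlapped with cKO cDC2, at 8.41 to 9.40, and stood below cKO pDC, at 10.24 to 11.73. The 8 measured pDC markers summed to 1257 to 2468 in cKO cDC1 and 1012 to 1840 in WT cDC1, with Siglech at 5.46 and 5.48 and Spib and Ly6d below the array median in both. The 14 red pulp macrophage markers summed to 1383 to 2864 in cKO cDC1 and 1081 to 2510 in WT cDC1. These sums largely reflected Treml4, at 10.39 in cKO cDC1 and 10.22 in WT cDC1, since no other of the markers averaged above 7.04. Spic averaged 6.37 against 5.73, and Cd163 and C1qc were below the array median in both. Of the 13 red pulp macrophage markers tested, 10 were above 0 and 1 was called higher, Adgre1 (6.64 in cKO cDC1 against 5.37 in WT cDC1, limma adjusted p = 0.0412). The part of these cells in the Pltp result was not tested, and in sorted bulk RNA fewer cells of a type and less RNA per cell cannot be told apart.

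In cDC2 the member that rose was Cd36, a scavenger receptor that takes up long-chain fatty acids and oxidised lipoproteins and is best known among splenic dendritic cells from cDC1. Cd36 read 5.46, 5.82, 5.59, 6.26 and 6.33 in cKO cDC2, against 3.98, 4.07 and 4.95 in WT cDC2. No cKO array reached down to the WT arrays, and the WT mean lay below the array median. The means were 5.89 ± 0.39 in cKO cDC2 (SD, n = 5) and 4.33 ± 0.53 in WT cDC2 (SD, n = 3), which differ by 1.56 ± 0.27 (SE) at a limma adjusted p of 0.00141. No fold is given, since the WT level was dim. Set A gave 1.66, set B 1.52 and set C 1.35. Even so, Cd36 in cKO cDC2 stayed far below cDC1, where it read 9.68, 9.83, 10.23 and 10.29 in cKO cells and 9.24, 9.26 and 9.58 in WT cells. That cDC1 difference was 0.65 ± 0.28 without overlap and did not pass (limma adjusted p = 1). Of the 32 members Cd36 was the 1 called in cDC2, where 1.16% of all genes were called higher and 0.403% lower. It stayed called with any 1 array left out (1.38 to 1.87). The call was lost with replicate number as a block within the 2 groups (1.29, limma adjusted p = 0.083). Arrays of the same number did not all deviate together in this comparison (lowest r −0.08).

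Other genes of lipoprotein handling differed in cDC2 without passing. Apoe, the apolipoprotein that macrophages and dendritic cells secrete to carry cholesterol, read 6.88, 6.29, 6.97, 7.28 and 7.13 in cKO cDC2, against 7.59, 7.76 and 8.48 in WT cDC2. All 5 cKO arrays were below all 3 WT arrays, and the difference was −1.03 ± 0.29 (limma adjusted p = 0.0836). It lay at −1, −0.80 and −1.27 within sets A, B and C, and it passed after quantile normalization (−1.13, adjusted p = 0.00294), with set as a term (−1.06, adjusted p = 4.61e-05) and with the replicate block over all arrays (−1.24, adjusted p = 0.000589). Apoe did not pass in the other 4 of 7 alternatives (limma adjusted p up to 0.126). Nor did it pass with any 1 array left out (adjusted p of 0.0692 to 0.558). Lpl, lipoprotein lipase, which frees fatty acids from triglyceride-rich lipoproteins, read 5.59, 5.07, 4.49, 6.04 and 5.92 in cKO cDC2, against 3.72, 3.94 and 4.88 in WT cDC2. Array 3 of the cKO group fell inside the WT range, and the difference was 1.24 ± 0.39 (adjusted p = 0.171). Lpl passed after quantile normalization (1.18, adjusted p = 0.0418) and with set as a term (1.17, adjusted p = 0.000217). It did not pass in the other 5 of 7 alternatives (limma adjusted p up to 0.678). Nor did it pass with any 1 array left out (1.01 to 1.59, adjusted p of 0.0523 to 0.633). Nr1h3, which encodes LXR alpha, read 5.54 to 5.94 in cKO cDC2 and 4.74 to 5.34 in WT cDC2, a difference of 0.59 ± 0.19 with no overlap (adjusted p = 0.211, and 0.58 with adjusted p = 0.0142 with set as a term). Scd2, a desaturase that makes monounsaturated fatty acids, differed by −0.73 ± 0.55 with overlapping arrays (adjusted p = 1, and −0.92 with adjusted p = 0.025 with set as a term). At an unadjusted p below 0.05, again without the share of all genes, the limma test gave 4 members in cDC2, namely Cd36, Apoe, Lpl and Nr1h3. The 14 sterol enzymes had a median of 0.26 with 12 above 0, beside 0.07 over all genes, and none was called. Within sets A, B and C that median was 0.25, 0.19 and 0.12, beside −0.01, 0.02 and 0.1 over all genes.

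Marker sums moved in cDC2 too. The red pulp macrophage list summed to 951 to 1787 in cKO cDC2 and 732 to 1562 in WT cDC2. Spic averaged 7.14 against 5.99, Mertk 6.55 against 4.14 and Axl 7.17 against 6.12, and C1qc was below the array median in both groups. Adgre1, the brightest of the list, was lower in cKO cDC2 (8.49 against 8.61), as was Hmox1 (5.48 against 5.88). Cd5l averaged 3.49 in both, and the other listed markers averaged higher in cKO cDC2. The 7 measured T and NK cell markers summed to 482 to 1079 in cKO cDC2 and 207 to 427 in WT cDC2, with Cd3g at 7.91 against 5.85. The 10 markers of cDC1, the type in which Cd36 is high, summed to 2682 to 4787 in cKO cDC2 and 3707 to 4169 in WT cDC2, and Xcr1 was below the array median in both (4.50 and 4.52). Of these 10, 8 were above 0, with a median difference of 0.43, and 1 was called higher, Naaa (9.51 in cKO cDC2 against 8.41 in WT cDC2, limma adjusted p = 0.0247). Of the 10 monocyte and neutrophil markers tested, Ccr2 was called higher (7.99 in cKO cDC2 against 6.05 in WT cDC2, adjusted p = 0.000128), and Csf3r (6.09 against 7.38, adjusted p = 0.00537) and Ace (5.62 against 6.91, adjusted p = 0.0348) were called lower. The 10 markers of cDC2 itself summed to 5380 to 9399 in cKO cDC2 and 4037 to 5499 in WT cDC2. Clec4a4 (4.83 against 7.55), Dtx1 (6.47 against 8.09) and Esam (5.27 against 5.83) averaged lower in cKO cDC2. The others averaged higher, among them Clec10a (8.19 against 5.78), Mgl2 (8.05 against 6.04) and Itgam (9.67 against 8.41). The part of other cells, or of differences within cDC2, in the Cd36 result was not tested.

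**Figure D2:**
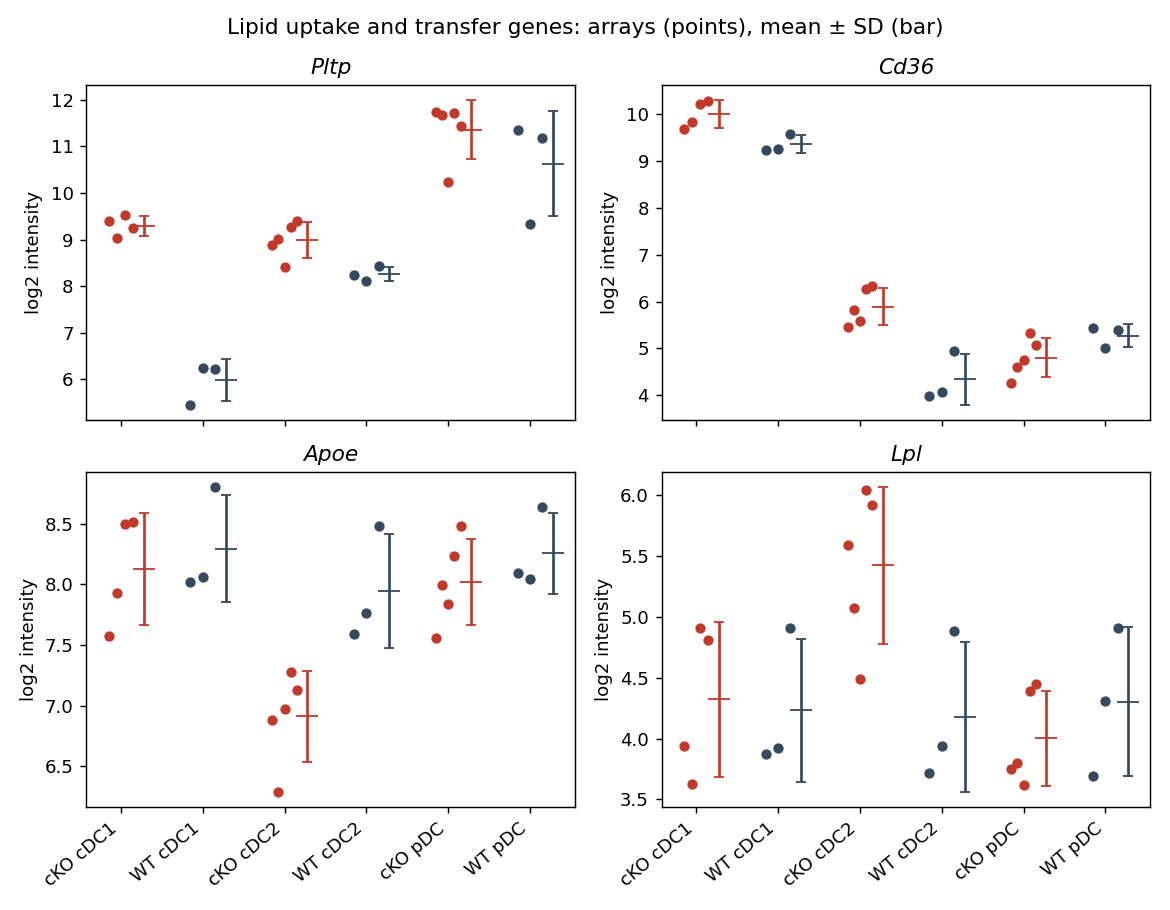
Log2 intensity of Pltp, Cd36, Apoe and Lpl on every array (points) with group mean ± SD (bars), cKO red and left of WT dark blue for each cell type. Pltp separates cKO from WT cDC1 by more than 2 units, Cd36 separates cKO from WT cDC2, and Lpl array 3 of cKO cDC2 falls among the WT arrays.

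In pDC no member passed in limma, where 0.0329% of all genes were called higher and 0% lower. At an unadjusted p below 0.05, again without the share of all genes, there was 1 member. That member was Nsdhl, which removes the C4 methyl groups of the sterol ring, with 7.44 to 8.23 in cKO pDC and 6.61 to 7.80 in WT pDC, a difference of 0.60 ± 0.28 (limma adjusted p = 1). Of the 14 enzymes 12 were above 0, with a median of 0.20 beside 0.05 over all genes. That median was 0.43 in set A, 0.19 in set B and −0.15 in set C, so its direction was not shared by the sets. Pltp read 11.73, 11.68, 10.24, 11.71 and 11.43 in cKO pDC, against 11.36, 9.33 and 11.19 in WT pDC. The groups overlapped (0.74 ± 0.38, adjusted p = 1), and the low array of each group, cKO array 3 and WT array 2, belonged to set B. Cd36 differed by −0.47 ± 0.27 in pDC (adjusted p = 1).

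**Figure D3:**
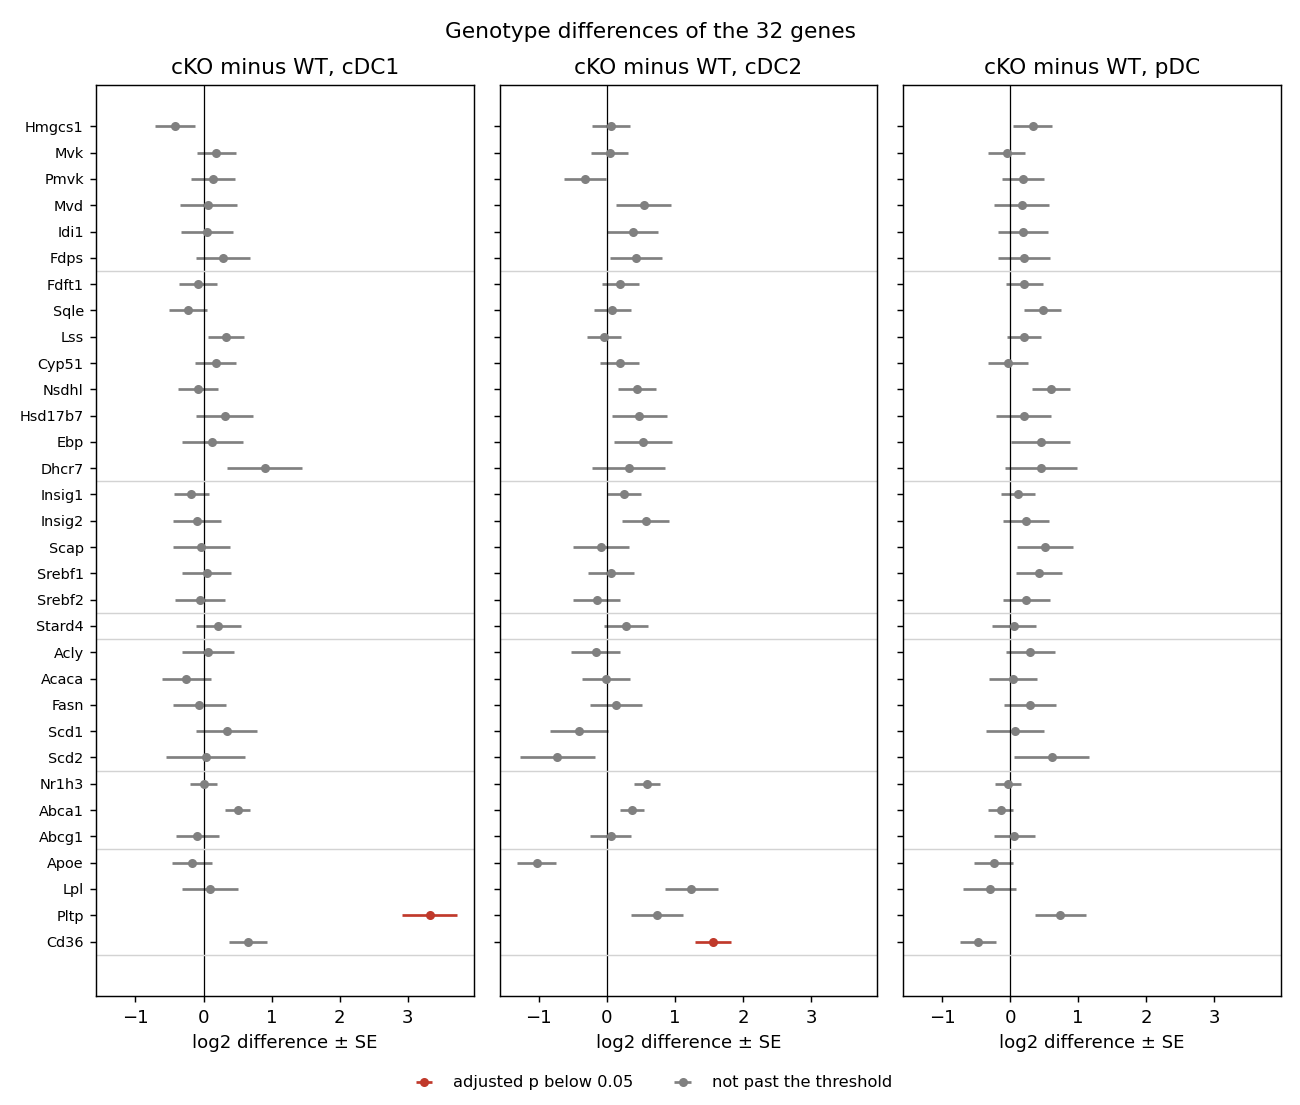
Difference between cKO and WT for each of the 32 genes in cDC1, cDC2 and pDC, as log2 difference ± SE on a shared axis, with genes grouped by role. Red marks the differences past the threshold, Pltp in cDC1 (3.32) and Cd36 in cDC2 (1.56), and grey the others.

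Whether the genotype effect itself differed between cell types was tested with interaction terms of the same limma model. For Pltp the effect in cDC1 exceeded that in cDC2, where cKO cDC2 read 8.88, 9.02, 8.41, 9.28 and 9.40 and WT cDC2 8.24, 8.12 and 8.43, by 2.59 ± 0.55 (limma adjusted p = 0.0375). It was the 1 member called in that comparison, in which 0.173% of genes were higher and 0.107% lower. The effect in cDC1 exceeded that in pDC by 2.59 ± 0.55 as well (adjusted p = 0.0355), again as the 1 called member beside 0.321% higher and 0.00823% lower. Both comparisons use the same cDC1 arrays. Both lie near the threshold. The cDC1 against cDC2 difference lost its call on leaving out any 1 of the 7 cDC1 arrays, any of the 3 WT cDC2 arrays, cKO cDC2 arrays 1 to 3 or cKO pDC array 5, with values of 2.33 to 2.72 and adjusted p of 0.0506 to 0.178. The cDC1 against pDC difference lost it without any 1 of the WT cDC1 arrays, without cKO cDC1 arrays 1, 3 or 4, or without WT pDC arrays 1 or 3, with values of 2.22 to 2.72 and adjusted p of 0.0515 to 0.182. Without the 3 high-Xist WT arrays the values were 2.34 (adjusted p = 0.249) and 1.96 (adjusted p = 0.599). For Cd36 the effect in cDC2 exceeded that in pDC by 2.03 ± 0.38 (adjusted p = 0.00832), the 1 called member where 0.362% of genes were higher and 0.123% lower. It stayed called with any 1 array left out (1.85 to 2.34), and it was 1.78 without the 3 high-Xist arrays (adjusted p = 0.167).

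Between cell types, the widest differences among the members were in uptake and transfer. In WT cells Cd36 read 9.24, 9.26 and 9.58 in cDC1, 3.98, 4.07 and 4.95 in cDC2 and 5.43, 5.00 and 5.39 in pDC. The cDC1 arrays stood apart from all others, above cDC2 by 5.03 ± 0.30 (limma adjusted p = 7.56e-11) and above pDC by 4.09 ± 0.30 (adjusted p = 5.95e-10). The WT cDC2 level was below the array median, so no fold is given. Pltp ran the other way, with 5.46, 6.25 and 6.23 in WT cDC1, 8.24, 8.12 and 8.43 in WT cDC2 and 11.36, 9.33 and 11.19 in WT pDC. It was 4.88-fold lower in cDC1 than in cDC2 (−2.29 ± 0.42, adjusted p = 0.00084), 25-fold lower in cDC1 than in pDC (−4.65 ± 0.42, adjusted p = 1.89e-08) and 5.13-fold lower in cDC2 than in pDC (−2.36 ± 0.42, adjusted p = 0.000315). Within sets A, B and C these differences were −2.78, −1.87 and −2.21, then −5.9, −3.08 and −4.96, then −3.12, −1.21 and −2.75. Each was smallest in set B, which holds the WT pDC array at 9.33. In cKO cells the order of the conventional types was not resolved: Pltp averaged 9.30 in cKO cDC1 and 9 in cKO cDC2, a difference of 0.30 ± 0.35 (adjusted p = 0.823), and both stayed below cKO pDC (−2.06 and −2.36, adjusted p = 9.24e-05 and 7.11e-06). The 3 pairs share arrays and are not independent.

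Insig2, which encodes an INSIG isoform that holds SCAP in the endoplasmic reticulum, was highest in cDC1. It read 7.70, 8.60 and 8.72 in WT cDC1, against 6.44, 6.03 and 6.67 in WT cDC2 and 6.81, 6.45 and 7.83 in WT pDC. The cDC1 arrays lay above every cDC2 array, and array 1 of cDC1 lay inside the pDC range. The difference was 1.96 ± 0.38 against cDC2 (limma adjusted p = 0.00128) and 1.31 ± 0.38 against pDC (adjusted p = 0.0205). Within sets A, B and C it was 1.25, 2.57 and 2.05 against cDC2 and 0.88, 2.15 and 0.89 against pDC. The call against pDC was lost without WT cDC1 array 2 or 3 or WT pDC array 1 or 2, with values of 1.02 to 1.20 and adjusted p of 0.0749 to 0.127. In cKO cells Insig2 averaged 8.24 ± 0.45 in cDC1 (SD, n = 4), 6.95 ± 0.59 in cDC2 and 7.27 ± 0.24 in pDC (n = 5 each), and both cDC1 differences passed (1.29 ± 0.31, adjusted p = 0.00742, and 0.97 ± 0.31, adjusted p = 0.0276). The second of these was lost without cKO cDC1 array 2, 3 or 4 or cKO pDC array 2 or 4, with values of 0.85 to 0.93 and adjusted p of 0.06 to 0.0999.

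Most enzymes of sterol synthesis had lower means in both conventional types than in pDC, by small amounts of which few passed the test. Of the 14 measured, 12 were below 0 in WT cDC1 against pDC (median −0.39, where the median of all genes was 0.05) and 13 in WT cDC2 against pDC (median −0.45, all genes 0.02). In cKO cells 12 were below 0 in cDC1 (median −0.47, all genes 0.05) and all 14 in cDC2 (median −0.49, all genes 0.02). Within sets A, B and C the WT cDC1 median was −0.55, −0.01 and −0.70, the WT cDC2 median −0.50, −0.30 and −0.72, the cKO cDC1 median −1.02, −0.15 and −0.38, and the cKO cDC2 median −0.83, −0.09 and −0.47. The smallest value in each comparison was that of set B, in which each group had 1 array. The mean over the 14 enzymes was 6.76 on cKO pDC array 3 and 6.61 on WT pDC array 2, the set B arrays, against 7.43 to 7.62 on the other cKO pDC arrays and 7.07 and 7.76 on the other WT pDC arrays.

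In WT cells 1 of 14 enzymes was called lower in cDC1 than in pDC, where 5.14% of all genes were, and none in cDC2, where 4.8% were. In each, 4 enzymes had an unadjusted limma p below 0.05, again without the share of all genes at that cut. Replicate number, the same split as set in WT cells, was also taken as a block in each pair of groups. With it limma called Dhcr7, Fdft1 and Idi1 lower in WT cDC1 and Dhcr7, Fdft1, Fdps, Hsd17b7 and Mvd in WT cDC2. The enzyme called without the block was Fdft1, squalene synthase, which commits the pathway to sterols. It read 7.48, 8.05 and 8.57 in WT cDC1, 8.18, 7.99 and 8.27 in WT cDC2 and 8.75, 8.76 and 9.62 in WT pDC. Both conventional types lay below every pDC array, by −1.01 ± 0.30 in cDC1 (limma adjusted p = 0.0247) and −0.90 ± 0.30 in cDC2 (adjusted p = 0.0518, and 0.0371 with the block). The cDC1 call was lost without WT cDC1 array 1 (−0.73, adjusted p = 0.181), WT cDC1 array 2 (−1.02, adjusted p = 0.0579) or WT pDC array 3 (−0.72, adjusted p = 0.147), and without the 3 high-Xist arrays (−0.88, adjusted p = 0.163). A dimmer Fdft1 probe set, not used, averaged 6.37 in WT cDC1, 6.63 in WT cDC2 and 7.65 in WT pDC. Insig1, itself a target of the SREBPs, read 7.18, 6.87 and 7.08 in WT cDC2, against 7.80, 8.10 and 7.95 in WT pDC, a difference of −0.90 ± 0.28 without overlap (adjusted p = 0.0336). That call was lost without any 1 of these 6 arrays (−0.98 to −0.82, adjusted p of 0.0513 to 0.116).

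The cKO groups, with 4 or 5 arrays each, had more enzymes called. In cKO cDC1 against pDC 4 of 14 were lower, where 7.9% of all genes were called lower: Fdft1 (−1.29 ± 0.25, limma adjusted p = 0.000374), squalene epoxidase Sqle (−1.17 ± 0.25, adjusted p = 0.00117), Hmgcs1 (−1.08 ± 0.26, adjusted p = 0.00329) and the isomerase Idi1 (−1.20 ± 0.34, adjusted p = 0.0117). Their arrays did not overlap with those of pDC. Hmgcs1, for example, read 5.95, 5.91, 6 and 6.10 in cKO cDC1, against 7.43, 7.12, 6.46, 7.26 and 7.09 in cKO pDC. The Idi1 call was lost without cKO cDC1 array 1 (−1.02, adjusted p = 0.0533) and with the mean of its 2 probe sets (−0.88, adjusted p = 0.0862). In cKO cDC2 against pDC 2 were lower, where 7.27% of all genes were called lower, namely Fdft1 (−0.91 ± 0.23, adjusted p = 0.00568) and Sqle (−0.79 ± 0.23, adjusted p = 0.0161), and Sqle lost its call without cKO pDC array 1 (−0.65, adjusted p = 0.0635). Insig1 was lower than in cKO pDC in cKO cDC1 (−0.90 ± 0.23, adjusted p = 0.00599) and in cKO cDC2 (−0.77 ± 0.22, adjusted p = 0.0117), but in set B the differences were 0.04 and −0.06. Whether the cell type difference of the enzymes depends on genotype is the interaction tested above, in which no enzyme passed in limma.

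**Figure D4:**
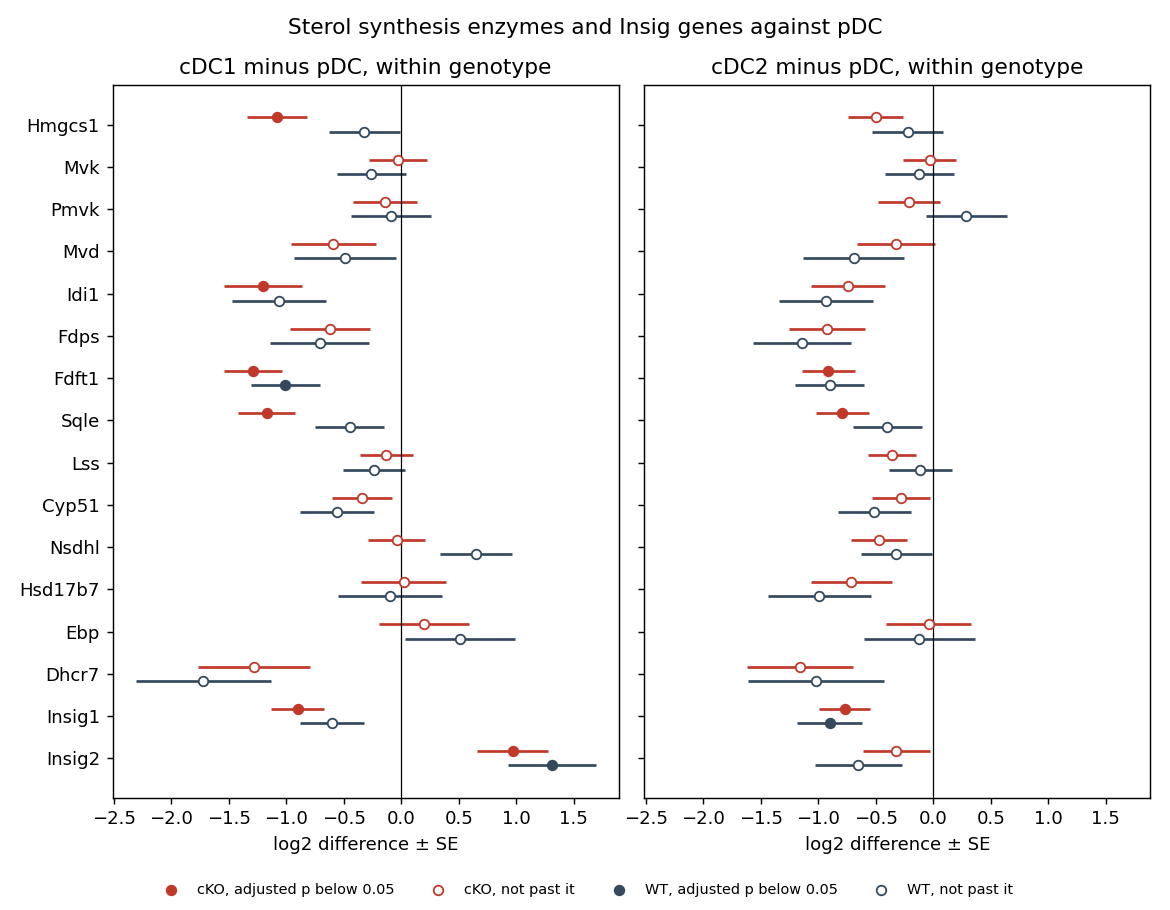
Sterol synthesis enzymes, Insig1 and Insig2 in cDC1 (left) and cDC2 (right) minus pDC, as log2 difference ± SE on a shared axis, cKO red above WT dark blue, filled where the adjusted p is below 0.05. Most enzymes lie left of 0 in both panels, while Insig2 lies right of 0 in cDC1.

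Counting all roles, 3 of 32 members were called between WT cDC1 and WT cDC2 (2 higher, 1 lower in cDC1), where 3.02% of all genes were higher and 3.04% lower. Between WT cDC1 and WT pDC 4 were called (2 higher, 2 lower), beside 8.37% and 5.14%. Between WT cDC2 and WT pDC 3 were called, all lower, beside 7.93% and 4.8%. The third was Cd36 (−0.94 ± 0.30, adjusted p = 0.0398), which lost its call without WT cDC2 array 1 or 2 or WT pDC array 1 or 3 (−0.88 to −0.76, adjusted p of 0.105 to 0.199). In these 3 WT pairs arrays of the same number, which are also of the same set, deviated together. With the number as a block within the 2 groups 9 members were called in each. These were 6 higher and 3 lower, 3 higher and 6 lower, and 0 higher and 9 lower. The same fits called 8.74% of all genes higher and 7.53% lower between cDC1 and cDC2, 14.2% and 8.25% between cDC1 and pDC, and 9.64% and 6.25% between cDC2 and pDC. Among those gained were Dhcr7 in all 3 pairs (−0.70, −1.72 and −1.02, with adjusted p of 0.0332, 0.000565 and 0.0118) and the fatty acid synthase Fasn, higher in cDC1 than in cDC2 (0.55, adjusted p = 0.0304) and in pDC (0.92, adjusted p = 0.0218).

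In cKO cells 4 members were called between cDC1 and cDC2 (3 higher, 1 lower), beside 4% and 4.95% of all genes. Cd36 (4.12 ± 0.25), Insig2 and Apoe (1.22 ± 0.26, adjusted p = 0.00287) were higher in cKO cDC1 and Nr1h3 was lower (−0.92 ± 0.18, adjusted p = 0.000915). Between cKO cDC1 and cKO pDC 8 were called (2 higher, 6 lower), beside 12.5% and 7.9%, and between cKO cDC2 and cKO pDC 10 (3 higher, 7 lower), beside 13.5% and 7.27%. The 3 higher in cKO cDC2 than in cKO pDC were Lpl (1.42 ± 0.34, adjusted p = 0.003), Cd36 (1.09 ± 0.23, adjusted p = 0.00108) and Nr1h3 (0.82 ± 0.17, adjusted p = 0.000667). Beside Pltp and the sterol genes, Apoe (−1.11 ± 0.25, adjusted p = 0.00174), the desaturase Scd1 (−1.43 ± 0.38, adjusted p = 0.00699) and the SREBP carrier Scap (−1.08 ± 0.35, adjusted p = 0.0301) were lower there. The Scap call was lost without cKO cDC2 array 3 or cKO pDC array 1, 2 or 4 (−1 to −0.94, adjusted p of 0.0745 to 0.0829). Acly, Acaca and Fasn, which build fatty acids from citrate, and Abca1, Abcg1, Stard4, Srebf1 and Srebf2 were called in none of the 12 limma comparisons.

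Of 74 further genes of the same pathways, not members, 54 were tested. In cDC1 1 of 54 was called higher and none lower, beside 0.814% and 0.0165% of all genes. It was Pparg, a nuclear receptor that drives Cd36 in macrophages, with 6.33, 6.01, 6.66 and 5.88 in cKO cDC1, against 5.03, 4.85 and 5.14 in WT cDC1. The arrays did not overlap, and the difference was 1.21 ± 0.23 (limma adjusted p = 0.00399). The WT mean, 5.01, was below the array median. The effect on Pparg in cDC1 exceeded that in pDC by 1.45 ± 0.31 (limma adjusted p = 0.0393), where 0.321% of all genes were called higher. Pparg also averaged higher in cKO cDC2 (5.32) than in WT cDC2 (4.58, below the array median), without overlap and without a call. In cDC2 1 of the 54 was called higher and 1 lower, beside 1.16% and 0.403%. The coactivator Ppargc1a was lower, with 4.24, 3.70, 4.26, 4.15 and 4.73 in cKO cDC2, against 5.13, 5.98 and 6.55 in WT cDC2 (−1.67 ± 0.37, adjusted p = 0.0149). The phosphatidate phosphatase Lpin1 was higher, with 7.61, 7.73, 6.48, 6.93 and 7.42 in cKO cDC2, against 6.10, 5.47 and 6.11 in WT cDC2 (1.34 ± 0.32, adjusted p = 0.0306). In pDC none of the 54 passed in limma, beside 0.0329% higher and 0% lower, and 1 had an unadjusted p below 0.05. Ppargc1a was lower there too, without overlap, averaging 4.96 in cKO pDC, below the array median, against 6.18 in WT pDC. The median over the 54 was 0.05 in cDC1, 0.26 in cDC2 and 0.13 in pDC, beside 0.06, 0.07 and 0.05 over all genes.

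Between WT cDC1 and cDC2 1 of the 54 was called higher and 5 lower, beside 3.02% and 3.04% of all genes. Between WT cDC1 and pDC 6 were higher and 9 lower, beside 8.37% and 5.14%, and between WT cDC2 and pDC 6 were higher and 5 lower, beside 7.93% and 4.8%. Against cDC2, cDC1 were lower in the fatty acid binding protein Fabp5 (−2.44 ± 0.42), Ppargc1a (−1.96 ± 0.41) and the lipoprotein receptor Lrp1 (−1.70 ± 0.28). Against pDC, cDC1 were lower in the desaturases Fads2 (−2.66 ± 0.63) and Fads3 (−2.65 ± 0.55) and in Npc1 (−2.44 ± 0.29), which lets cholesterol out of lysosomes. Against pDC, cDC2 were higher in Dgat1 (2.18 ± 0.55), which makes triglyceride, and Fabp5 (2.05 ± 0.42) and lower in the sterol enzyme Msmo1 (−2.06 ± 0.34). Limma's adjusted p for these ran from 1e-06 to 0.00858.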

How the data were processed

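Per the submitters' processing notes, the arrays were processed with Affymetrix Expression Console and RMA, whose versions are not given in the sources used here. The deposited values are intensities on a linear scale (3.785 to 13980.7), as the authors' table gives them, and log2 was taken of them without further normalization. Of 28853 probe sets, 21789 named 1 gene in the platform's gene table, 1621 named several and were left out, and 21698 were matched to RefSeq (GRCm38.p6) by Entrez identifier. Probe sets above the array median on at least 3 arrays were kept, and a gene with several was read from its brightest on average. limma 3.58.1 in R 4.3.3 fitted 6 group means over 23 arrays (17 residual degrees of freedom), with Benjamini-Hochberg adjustment over 12157 genes and calls at adjusted p below 0.05. The number of arrays limits the precision. On simulated data with 12157 genes, the cDC1 genotype comparison recovered 43% of changes of 1 log2 unit and 94% of changes of 2 units. The simulated noise was independent for each gene and array, without the sets, so recovery in the real arrays may differ. Arrays of the same replicate number deviated together in the cDC1 genotype comparison (r = 0.44 to 0.54) and in the 3 WT pairs (0.48 to 0.65, 0.46 to 0.70 and 0.38 to 0.60). Arrays 1, 2 and 3 there were also those of sets A, B and C, so number and set cannot be told apart. In the cDC2 genotype comparison r was 0.68 for number 1, of the same set. It was −0.08 and −0.03 for numbers 2 and 3, of different sets. Number 4 of cKO cDC2 and cKO pDC, both of set C, gave −0.05. The labels do not say what a number marks.

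The members and lists were chosen with earlier results of these data known. Levels on every array are printed for members called in a genotype contrast or in a difference between genotype effects and for up to 4 called members in each WT cell type pair. Members with adjusted p of 0.05 to 0.1 in a genotype contrast are named with values, as are up to 6 called genes of the wider list per genotype contrast and up to 3 per WT pair. Other members with values were chosen after these were seen. Alternatives were quantile normalization, no filter, the mean of a gene's probe sets, set as a term, replicate number as a block, and leaving out each array.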

Additional observations from a re-analysis of the deposited data

Results flagged for a closer look

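The genotype effect on Pltp was larger in cDC1 than in cDC2, by 2.59, and than in pDC, by 2.59, and that on Cd36 was larger in cDC2 than in pDC, by 2.03, each by limma's interaction term.

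In 13 of 96 groups of 4 or 5 arrays a single array stood apart from the rest by Dixon's test, which chance does in about 1 in 20. Of these 13, 10 were on array 3 of cKO pDC or cKO cDC2, the set B arrays, and all 10 were low. On cKO pDC array 3 these were Fdft1 (8.84, others 9.34 to 9.38), Mvk (5.60, others 6.56 to 6.68), Mvd (6.36, others 7.32 to 7.70), Srebf1 (6.32, others 7.34 to 7.66), Fasn (6.98, others 7.81 to 8.10) and Pltp (10.24, others 11.43 to 11.73). On cKO cDC2 array 3 they were Srebf1 (6.06, others 7.03 to 7.34), Scap (7.49, others 8.14 to 8.24), Fasn (7.36, others 8.08 to 8.28) and Acly (7.13, others 8.08 to 8.34). The rest were Fdps on cKO pDC array 5 (9.81, others 8.59 to 8.89), Cyp51 on cKO cDC1 array 1 (5.85, others 6.72 to 6.86) and Abca1 on cKO pDC array 1 (4.92, others 5.19 to 5.29).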

How the results depend on the processing

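No called member changed sign under any alternative run. The count of called members in the cDC2 genotype comparison, 1 as reported, was 3 after quantile normalization, 5 with set as a term, 2 with the replicate block over all arrays and 0 with the block within the 2 groups (Cd36 1.29, limma adjusted p = 0.083). The interaction counts, 1 each, were 3 (cDC1 against cDC2), 2 (cDC1 against pDC) and 4 (cDC2 against pDC) with set as a term, 2 for cDC1 against pDC with the replicate block over all arrays, 0 for both cDC1 comparisons without the filter, and 0 for all 3 without the high-Xist arrays. Between WT cDC1 and cDC2 (3 as reported) 7 were called with set as a term and 9 with the block within the 2 groups. Between WT cDC1 and pDC (4) the counts were 11 with set as a term, 7 with the block over all arrays and 9 with that within the 2 groups. Between WT cDC2 and pDC (3) they were 6 after quantile normalization, 12 with set as a term, 7 and 9 with the 2 blocks and 1 without the high-Xist arrays. Quantile normalization and set as a term gave 13 and 15 between cKO cDC1 and pDC (8) and 16 and 16 between cKO cDC2 and pDC (10). The replicate block moved no other count by over 1.5 times. Leaving out 1 array gave 0 to 1 for each cDC1 interaction, 2 to 5 between WT cDC1 and pDC (2 without WT cDC1 array 2) and 1 to 4 between WT cDC2 and pDC (1 without WT cDC2 array 1 or 2 or WT pDC array 3). Set was read from the array medians, so its term lowers the residual by construction. In the WT pairs the block within the 2 groups is that same split. The cause of the other changes was not tested. The block within 2 groups was chosen after seeing the data. Members dimmer than the array median have compressed differences.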
